A study of Zea mays with 18 samples.

Results

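The NO3- response of roots that lack ZmNRT1.1B was taken as the difference between zmnrt1.1b roots given KNO3 and zmnrt1.1b roots given KCl. It rested on 6 of the 18 RNA-seq libraries of the series, chosen by their labels, with 3 libraries under KNO3 (replicates 2, 4 and 5) and 3 under KCl (replicates 2, 3 and 4). Maize seedlings of the mutant zmnrt1.1b were kept on complete solution for 10 days, starved of N for 4 days, and treated for 2 h with KNO3 or, to supply the cation without NO3-, with KCl, each at 5 mM. Roots of wild type (WT) and of zmnlp3.1, a mutant of the transcription factor ZmNLP3.1, were treated alike, with 3 libraries per treatment, and are used here only where the response of zmnrt1.1b is set against theirs. The sample labels call both mutants knockdowns, whereas the methods of the study describe CRISPR/Cas9 loss-of-function alleles made in the inbred line ND101. Which zmnrt1.1b line was sequenced, and whether libraries came from separate plants, is not stated. The p-values measure the spread within groups, pooled over all 18 libraries, and that spread may be technical.

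NRT1.1 proteins belong to the NPF family of transporters. In Arabidopsis, NRT1.1 both carries NO3- into root cells and acts as a NO3- sensor at the plasma membrane, from which a Ca2+ signal passes to transcription factors of the NIN-like protein (NLP) family. These factors switch on the genes of the primary NO3- response within minutes to hours: transporters, nitrate and nitrite reductase, the plastid enzymes that supply reductant, and regulators such as the NIGT1/HHO repressors, the LBD37 group and BT2. Nitrate reductase converts NO3- to nitrite in the cytosol, nitrite reductase converts nitrite to ammonium in the plastid with electrons from ferredoxin, and glutamine synthetase and glutamate synthase bind the ammonium into amino acids.

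From 16956831 to 17770002 reads per library were recovered from the deposited values under KNO3 and from 16955904 to 17859459 under KCl. Values are FPKM, fragments on a gene scaled to its length and to a library size. That size was set by median ratios and was 0.94 to 1.04 times the recovered reads in zmnrt1.1b libraries. Libraries of zmnrt1.1b under KNO3 varied more among themselves than those under KCl, with a median SD of 0.27 against 0.16 on the log2 scale, and the lowest correlation between 2 KNO3 replicates was 0.938. The 71 root marker genes, 54 of them tested, summed to 2024 to 3269 FPKM under KNO3 and 2924 to 3458 FPKM under KCl. The 79 leaf photosynthesis genes, 19 of them tested, summed to 43.3 to 54.7 FPKM and 56.6 to 61.6 FPKM. All 35 seed storage genes, 4 of them tested, together reached 1.97 to 4.60 FPKM under KNO3 and 3.37 to 8.44 FPKM under KCl. No ID of the deposited table could be linked to ZmNRT1.1B, so the genotype labels were not checked against the level of that gene.

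Roots of zmnrt1.1b still responded to NO3- in both directions. Of 26011 genes tested, 527 rose (2.03%) and 681 fell (2.62%), a gene being called where the adjusted p was under 0.05 and the absolute log2 fold change over 1. At any size of change, 1772 genes (6.81%) were higher and 2172 (8.35%) lower under KNO3 at that adjusted p. The quartiles of the rises were log2 fold changes of 1.12 and 1.70 with a median of 1.298, and those of the falls were −1.70 and −1.14 with a median of −1.36. The KNO3 libraries all lay on one side of the KCl libraries in 521 of the 527 rising and 663 of the 681 falling genes. Among all genes tested, 15.7% had every KNO3 library above every KCl library and 17.8% had every one below. Without KCl replicate 2, 404 genes fell. A call survived each of the 6 fits without 1 zmnrt1.1b library for 253 of the rising and 294 of the falling genes.

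In WT, 716 genes rose (2.75%) and 750 fell (2.88%) by the same rule, and at any size of change 6.43% of the genes tested were higher and 6.42% lower. Of the genes rising in zmnrt1.1b, 239 also rose in WT, which was 45.4% of the zmnrt1.1b list and 33.4% of the WT list, and 1 fell there. Of the genes falling in zmnrt1.1b, 215 also fell in WT (31.6% and 28.7% of the lists), and 5 rose there. In zmnlp3.1, where 453 genes rose (1.74%) and 595 fell (2.29%), the shared genes numbered 164 rising (31.1% of the zmnrt1.1b list and 36.2% of the zmnlp3.1 list) and 144 falling (21.1% and 24.2%). At any size of change, 14% of the genes tested passed the adjusted p in zmnlp3.1, with 6.88% higher and 7.14% lower. Rising in all 3 genotypes were 121 genes, and 80 fell in all 3. Across the genes tested, the log2 fold changes of zmnrt1.1b and WT had a correlation of 0.45, a description over genes that are not independent replicates, and each came from separate libraries.

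**Figure D1:**
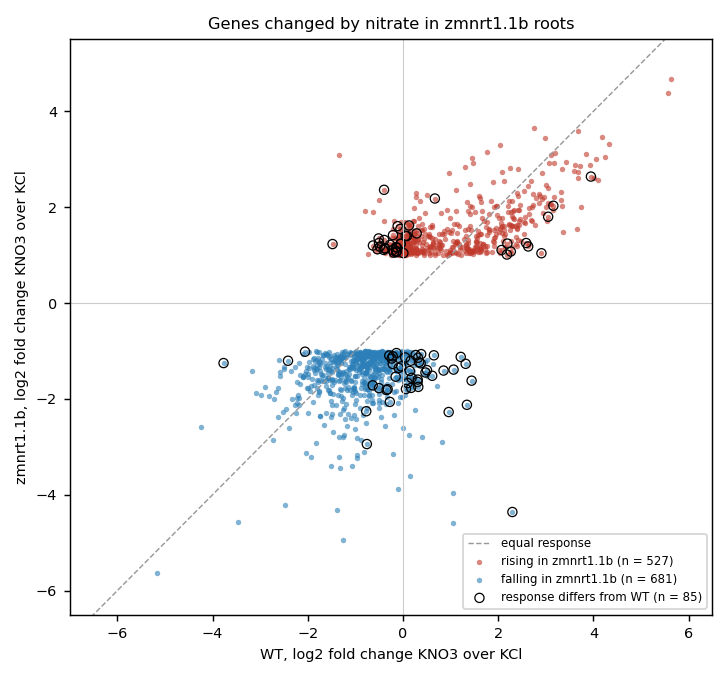
Log2 fold change (KNO3 over KCl) in zmnrt1.1b roots, vertical axis, against that in WT roots, horizontal axis, for the 527 genes rising (red) and the 681 falling (blue) in zmnrt1.1b; each point is a gene, the dashed line marks an equal response, and circles mark genes whose response differed from WT by the interaction test. Points lie mainly in the quadrants of equal sign, and 40 rising and 45 falling genes are circled.

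The first step of NO3- assimilation was among the strongest responses of zmnrt1.1b roots. Of 9 tested nitrate and nitrite reductase genes, 5 rose and none fell, with a median log2 fold change of 1.87, against −0.03 over all genes tested. The nitrate reductase gene Zm00001d018206 (chromosome 5, 216589277 to 216592402 in B73 RefGen_v4) had 638, 417 and 423 FPKM in KNO3 libraries, against 58.8, 58.1 and 51.0 FPKM in KCl libraries. All of its KNO3 libraries were far above all KCl libraries, with a log2 fold change of 3.11 ± 0.24 (SE, adjusted p = 1.6e-06). In WT the same gene averaged 867 FPKM under KNO3 and 60.5 FPKM under KCl, and the 2 responses differed by −0.74 on the log2 scale (adjusted p = 0.26). A second nitrate reductase gene, Zm00001d049995 on chromosome 4, had 167, 91.7 and 103 FPKM under KNO3 and 32.1, 30.8 and 32.3 FPKM under KCl. Its log2 fold change was 1.87 ± 0.23 (adjusted p = 1.0e-04). Zm00001d031769, also a nitrate reductase gene, gave 0.97 (adjusted p = 0.037), just short of the limit on the fold, and was called at 1.12 without KNO3 replicate 5. Both remaining nitrate reductase genes, a newly assembled one on chromosome 2 and gene_Zm00001d017025, stood at 8.26 FPKM or less in every zmnrt1.1b library and did not pass the test.

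Nitrite reductase rose with it. Zm00001d018161 (chromosome 5, 215727084 to 215730071) had 1115, 697 and 801 FPKM under KNO3 and 210, 171 and 152 FPKM under KCl. KNO3 and KCl libraries did not overlap, and the log2 fold change was 2.28 ± 0.32 (adjusted p = 4.1e-04). The chromosome 4 genes gene_Zm00001d052164 and gene_Zm00001d052165 rose by log2 fold changes of 2.01 and 2.24, at 26.3 to 38.3 FPKM and 1.18 to 2.44 FPKM under KNO3. They overlap on the genome, so that their reads cannot be told apart with certainty. The last gene of that description, Zm00001d013211, had 13.9 to 21.2 FPKM under KNO3 and 17.5 to 20.2 FPKM under KCl, and these ranges overlapped.

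Siroheme is the iron cofactor of nitrite reductase, and 2 of 8 tested siroheme genes rose, both coding for the uroporphyrinogen III methyltransferase that starts its synthesis. Zm00001d044138 had 385, 344 and 385 FPKM under KNO3, against 121, 100 and 101 FPKM under KCl (log2 fold change 1.79 ± 0.28, adjusted p = 8.3e-04). Its paralogue Zm00001d011428 had 24.4, 28.5 and 30.4 FPKM, against 12.2, 11.4 and 10.1 FPKM (log2 fold change 1.297). Every KNO3 library of both genes was above every KCl library.

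The supply of electrons and sugar phosphates to the plastid responded as well. Of 43 tested genes of plastid reductant and the pentose phosphate pathway, 9 rose and none fell, although the median of the list was −0.01. The root ferredoxin-NADP reductase gene_Zm00001d034345, which passes electrons from NADPH to ferredoxin in root plastids, had 1161, 905 and 1055 FPKM under KNO3 and 222, 192 and 178 FPKM under KCl. Its log2 fold change was 2.40 ± 0.25 (adjusted p = 3.0e-05). The Ferredoxin-6 gene Zm00001d010136 had 111, 92.9 and 98.8 FPKM under KNO3, against 16.4, 11.7 and 12.8 FPKM under KCl, at a log2 fold change of 2.89 ± 0.26. In WT this gene averaged 316 FPKM under KNO3 and 20.7 FPKM under KCl, and the difference between the responses was −1.03 (adjusted p = 0.16). A second Ferredoxin-6 gene, Zm00001d038291, was more abundant, with 960, 871 and 830 FPKM under KNO3 and 268, 231 and 202 FPKM under KCl.

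NADPH for this chain comes from the oxidative pentose phosphate pathway. Its first enzyme, glucose-6-phosphate dehydrogenase (gene_Zm00001d025015), had 372, 367 and 457 FPKM under KNO3 and 133, 106 and 119 FPKM under KCl, a log2 fold change of 1.74. The 6-phosphogluconate dehydrogenase gene_Zm00001d049187 rose by 1.53 and the transaldolase gene_Zm00001d011965 by 1.76 on the log2 scale. Zm00001d021653, a carrier of glucose 6-phosphate into plastids, had 91.6, 72.9 and 89.3 FPKM, against 27.9, 21.9 and 23.9 FPKM. The call was kept in all fits without 1 zmnrt1.1b library for these 4 genes and for the ferredoxins and the ferredoxin-NADP reductase. Separately, the plastid malate dehydrogenase gene_Zm00001d032187, from a list of 93 organic acid and glycolytic enzymes of which 2 rose and 2 fell (1 fell without KCl replicate 2, KNO3 replicate 2 or KNO3 replicate 4), had 285, 216 and 232 FPKM under KNO3 and 61.9, 56.3 and 57.3 FPKM under KCl (log2 fold change 2.05 ± 0.20).

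Genes that bind ammonium into amino acids responded in part. Of 24 tested genes, 5 rose and none fell, and 3 rose without KNO3 replicate 2. The plastid glutamine synthetase Zm00001d026501 had 52.3, 50.8 and 72.8 FPKM under KNO3 and 21.9, 18.0 and 16.8 FPKM under KCl (log2 fold change 1.62 ± 0.28, adjusted p = 0.0016). Ferredoxin-dependent glutamate synthase, Zm00001d022388, had 291, 247 and 293 FPKM, against 140, 108 and 121 FPKM, a log2 fold change of 1.18 ± 0.26. Asparagine synthetase Zm00001d047736, which moves N from glutamine to asparagine, had 18.8, 18.4 and 33.6 FPKM, against 6.76, 4.66 and 5.46 FPKM (log2 fold change 2.01). None of the 24 genes had a response that differed from WT by the interaction test at an adjusted p under 0.05, where 1.51% of all genes did.

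**Figure D2:**
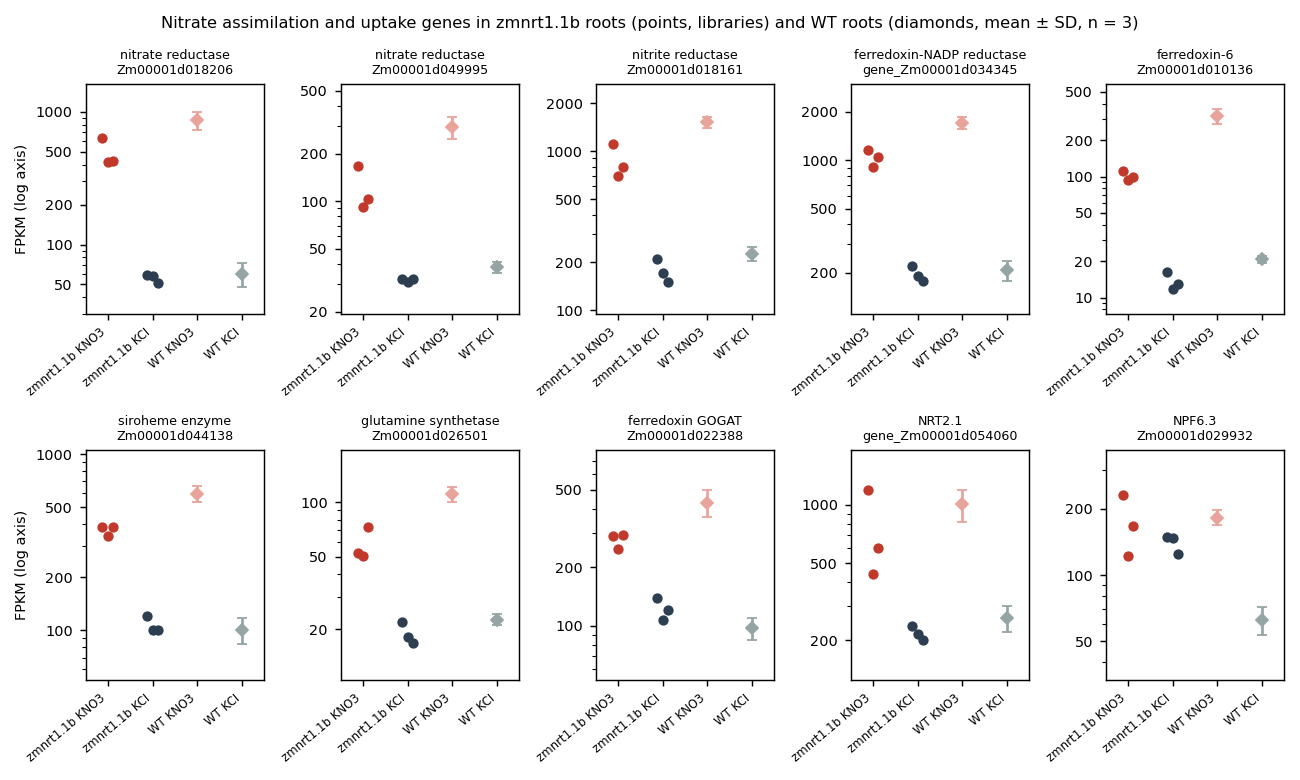
FPKM on a log axis of 8 genes of NO3- assimilation, NRT2.1 and NPF6.3, each in its own panel; red and dark points are single zmnrt1.1b libraries under KNO3 and KCl, pale and grey diamonds are WT means with SD (n = 3). In the first 8 panels every zmnrt1.1b KNO3 point lies above every KCl point, whereas in the NPF6.3 panel the points of both treatments overlap.

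Few uptake genes passed the test. Of 61 tested nitrate transporter genes 1 rose (1.64%) and 4 fell (6.56%) in zmnrt1.1b, where 2.03% and 2.62% of all genes did. Without KNO3 replicate 2, 3 rose and 8 fell. In WT 6 rose and 4 fell. By the interaction test against WT, 1 of the 61 had a higher and 1 a lower response in zmnrt1.1b, at an adjusted p under 0.05. Summed over the list, the level was 3315 to 5564 FPKM in zmnrt1.1b under KNO3 and 2557.5 to 3086 FPKM under KCl, with no overlap, whereas the median log2 fold change was −0.08. The one that rose, Zm00001d017666, is described as NPF7.3, a transporter that in Arabidopsis loads NO3- into the xylem. It had 165, 271 and 178 FPKM under KNO3 and 47.7, 48.7 and 60.5 FPKM under KCl (log2 fold change 1.94 ± 0.25, adjusted p = 2.0e-04), and its response did not pass the interaction test against WT (difference 1.006, adjusted p = 0.16). Among the falling genes, the NPF5.2 gene Zm00001d014060 had 2.65, 2.74 and 3.18 FPKM under KNO3, against 7.26, 8.11 and 7.92 FPKM under KCl. Zm00001d033528 (NPF2.11) had 22.7, 18.3 and 17.7 FPKM, against 42.7, 45.3 and 40.2 FPKM. Zm00001d045667 (NPF3.1) had 12.02, 12.9 and 23.8 FPKM, against 47.2, 44.3 and 31.5 FPKM. The fourth, Zm00001d024587, described as NPF6.3, had 117, 74.0 and 83.6 FPKM under KNO3 and 200, 192 and 166 FPKM under KCl, with a log2 fold change of −1.04. That value was −0.99 without KCl replicate 2, −0.90 without KNO3 replicate 4 and −0.99 without KNO3 replicate 5, short of the limit on the fold.

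Zm00001d029932, another gene described as NPF6.3 (chromosome 1, 94940936 to 94945167), did not pass the test in zmnrt1.1b. It had 231, 122 and 167 FPKM under KNO3 and 148, 147 and 125 FPKM under KCl, ranges that overlap, with a log2 fold change of 0.26 ± 0.25 (adjusted p = 0.52). WT roots averaged 183 FPKM under KNO3 and 62.5 FPKM under KCl (log2 fold change 1.55, adjusted p = 5.7e-04), and the difference between the responses was −1.29 (adjusted p = 0.082). The other gene of that description, Zm00001d027285, stayed at or below 3.57 FPKM. The paper places ZmNRT1.1B, itself an NPF transporter, close to its tandem copy ZmNRT1.1C on chromosome 1. No ID could be linked to ZmNRT1.1B, so a gene of this description, such as Zm00001d029932, may be the mutated gene itself. That was not tested.

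High-affinity uptake by NRT2 transporters needs the partner protein NAR2. The NRT2.1 gene gene_Zm00001d054060 had 1191, 442 and 598 FPKM under KNO3 and 238, 216 and 200 FPKM under KCl. Its KNO3 libraries lay above the KCl libraries but far apart from each other, and the log2 fold change of 1.65 ± 0.56 missed the threshold (adjusted p = 0.056), which it passed in a fit of the 6 zmnrt1.1b libraries alone (adjusted p = 0.026). Over all its alternatives the adjusted p ran between 0.0028 and 0.18. Its neighbour gene_Zm00001d054057 gave 1.22 (adjusted p = 0.096), and the pair may share reads. The NAR2 gene Zm00001d017095 had 2036, 1437 and 1926 FPKM under KNO3 and 1310, 1062 and 1025 FPKM under KCl (log2 fold change 0.66, adjusted p = 0.21).

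Of 3 tested BTB/TAZ genes 1 rose, and the median log2 fold change of the 3 was −0.32. The one that rose, the BT2 gene gene_Zm00001d042443, which in Arabidopsis codes for a scaffold protein that restrains NO3- uptake genes, had 170, 174 and 180 FPKM under KNO3 and 24.6, 19.5 and 19.2 FPKM under KCl. Its log2 fold change was 3.05 ± 0.23 (adjusted p = 1.3e-06), beside 511 FPKM under KNO3 and 26.8 FPKM under KCl in WT (difference of the responses −1.20, adjusted p = 0.073). LBD37, Zm00001d033347, which in Arabidopsis represses N genes when N is ample, had 67.1, 80.5 and 76.7 FPKM, against 14.6, 9.80 and 9.42 FPKM (log2 fold change 2.74 ± 0.23). A further 3 LOB domain genes, all described as LBD41, rose at 109 to 167 FPKM under KNO3 and 39.1 to 66.6 FPKM under KCl, so that 4 of 23 tested LOB genes rose and 1 fell. None of the 10 NLP genes tested passed the test with a 2-fold change, and their median log2 fold change was −0.07.

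NIGT1/HHO factors are repressors that NLP factors induce and that limit NRT2 and phosphate genes in Arabidopsis. Of 4 tested genes of that description, 2 rose, at low fold. The HHO5 gene gene_Zm00001d034160 had 21.6, 30.7 and 33.6 FPKM under KNO3, against 15.0, 14.2 and 11.1 FPKM under KCl, a log2 fold change of 1.07 that was 0.94 without KCl replicate 4 and 0.95 without KNO3 replicate 5. In WT it averaged 61.2 FPKM under KNO3 and 12.6 FPKM under KCl, and the responses differed by −1.19 (adjusted p = 0.032, kept in 6 of the 12 fits without 1 zmnrt1.1b or WT library). The other, gene_Zm00001d023402, was near 1 FPKM, and its adjusted p of 0.029 became 0.13 without KCl replicate 3, 0.056 without KCl replicate 4, 0.076 without KNO3 replicate 4 and 0.072 without KNO3 replicate 5. A gene spelled NIGTH1 in the table and therefore outside that list, gene_Zm00001d007962, had 35.4, 36.6 and 34.2 FPKM, against 18.6, 16.6 and 12.2 FPKM (log2 fold change 1.18). Its WT means were 120 FPKM under KNO3 and 19.3 FPKM under KCl, and the difference of the responses was −1.45 (adjusted p = 0.0058).

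Among kinases of Ca2+ signalling, CIPK genes were called in both directions. The nearby chromosome 3 genes Zm00001d044642 and Zm00001d044644, both described as CIPK32, rose by a log2 fold change of 1.94 each, at 32.6, 36.7 and 45.96 FPKM and at 28.3, 28.6 and 36.1 FPKM under KNO3, against 10.7, 8.60 and 10.4 FPKM and 7.26, 8.16 and 8.56 FPKM under KCl. CIPK29 (gene_Zm00001d022451) had 130, 104 and 84.5 FPKM, against 39.1, 33.5 and 44.5 FPKM. Falling CIPK genes, picked after their values were seen, were CIPK23 (gene_Zm00001d018799), CIPK31 (gene_Zm00001d022547) and CIPK14 (gene_Zm00001d052340), at log2 fold changes of −1.07, −1.15 and −1.12. CIPK23, which in Arabidopsis phosphorylates NRT1.1, had 41.4, 64.9 and 76.4 FPKM under KNO3, against 135, 121 and 118 FPKM under KCl. Without KNO3 replicate 2 the value was −0.82 for CIPK23 and −0.97 for CIPK14, short of the limit on the fold. The calcium-binding protein gene gene_Zm00001d005766 (CML45) had 25.3, 30.8 and 40.5 FPKM, against 74.1, 79.2 and 93.6 FPKM, a log2 fold change of −1.37. In all, 4 of 179 tested genes of Ca2+ sensors and CIPK kinases rose and 5 fell, near the background of all genes.

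Other strong rises were spread over several functions. Non-symbiotic hemoglobin 1 (gene_Zm00001d038718), which scavenges nitric oxide in plant roots, had 215, 406 and 386 FPKM under KNO3 and 58.0, 49.3 and 60.4 FPKM under KCl (log2 fold change 2.54 ± 0.21). The zinc finger gene Zm00001d035609 (ZAT5) had 214, 147 and 135 FPKM, against 26.2, 23.3 and 23.8 FPKM (2.73 ± 0.32). A DREB1A-type AP2 factor, gene_Zm00001d021208, had 37.2, 38.5 and 40.6 FPKM, against 5.26, 5.34 and 5.87 FPKM (2.80 ± 0.30), and its neighbour Zm00001d021207 had 9.53, 8.12 and 6.77 FPKM, against 1.81, 0.799 and 1.44 FPKM. Zm00001d008329, which has no protein description, had the highest mean under KNO3 of the named genes, with 2225, 1632 and 1965 FPKM under KNO3 and 219, 191 and 175 FPKM under KCl (3.31 ± 0.22, adjusted p = 5.8e-07).

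Single genes of sugar signalling and phosphate transport rose as well. Of 81 tested sucrose, trehalose and starch genes, 4 rose (4.94%) and 2 fell (2.47%), against 8 and 7 in WT. Trehalose 6-phosphate is a sugar signal in plants, and the phosphatase gene gene_Zm00001d020272 that removes its phosphate had 10.4, 8.45 and 11.6 FPKM under KNO3 and 3.04, 3.26 and 2.24 FPKM under KCl, a log2 fold change of 1.80 in zmnrt1.1b and 3.05 in WT (difference −1.25, adjusted p = 0.046, kept in 3 of the 12 fits without 1 zmnrt1.1b or WT library). Of 38 tested phosphate starvation genes 4 rose and 1 fell, where 2.03% and 2.62% of all genes did. At any size of change 5 were higher and 6 lower at an adjusted p under 0.05, and the median log2 fold change was −0.18. The phosphate transporter Zm00001d031875 (PHT1-6) had 6.91, 6.12 and 3.25 FPKM, against 0.380, 0.983 and 0.668 FPKM (2.84 ± 0.33), and Zm00001d027700 (PHT1-2) had 39.96, 14.9 and 19.5 FPKM, against 5.41, 5.46 and 4.48 FPKM. The phosphate exporter gene Zm00001d051945 (PHO1-2) had 13.4, 28.3 and 21.7 FPKM, against 7.17, 7.65 and 8.91 FPKM. In WT it averaged 6.83 FPKM under KNO3 and 9.63 FPKM under KCl, and its responses differed by 1.86 (adjusted p = 0.036), a call kept in 3 of the 12 fits without 1 zmnrt1.1b or WT library.

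**Figure D3:**
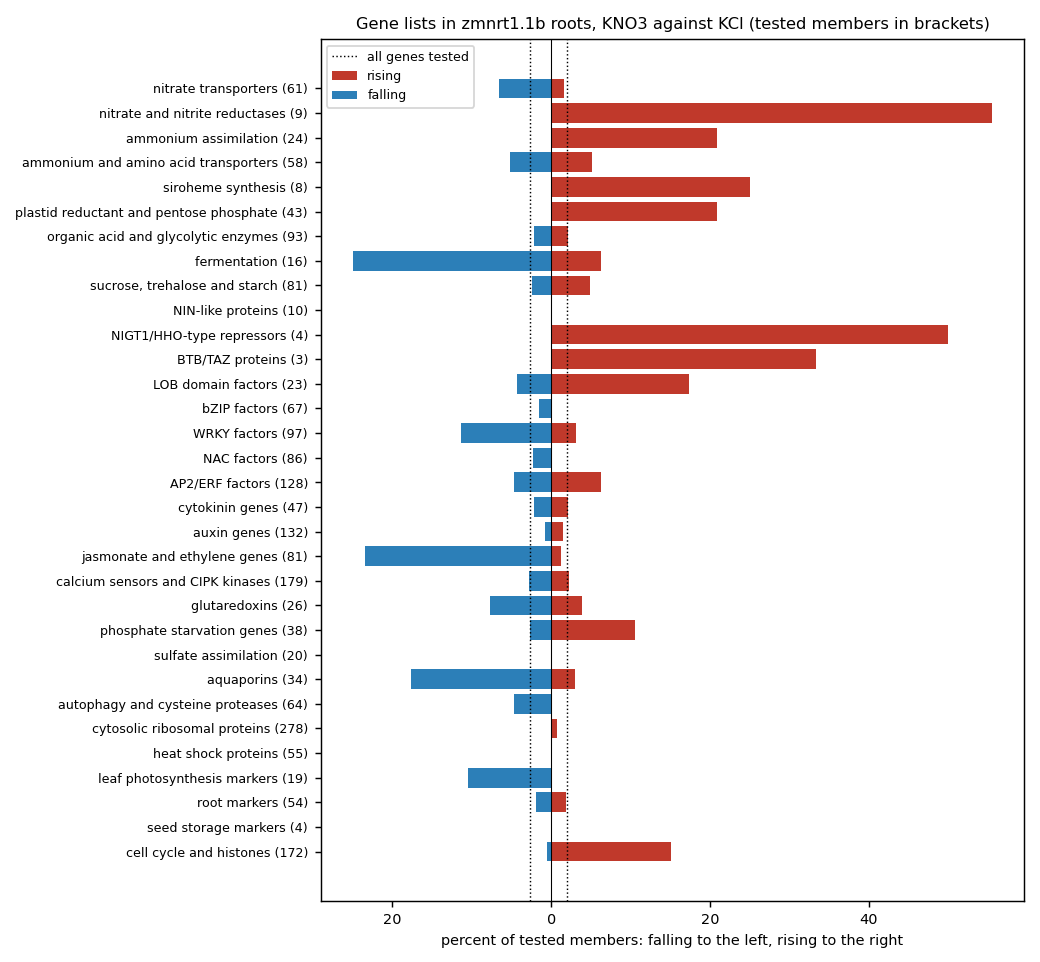
Percent of the tested members of each of 32 gene lists that rose (red, to the right) or fell (blue, to the left) in zmnrt1.1b roots under KNO3, with the number tested in brackets; dotted lines mark the 2.03% and 2.62% of all genes tested. Bars to the right are longest for nitrate and nitrite reductases and the small NIGT1/HHO and BTB/TAZ lists, and bars to the left for the fermentation list and for jasmonate and ethylene genes.

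Genes of jasmonate and ethylene had the most falling members of the 32 lists examined. Of 81 tested, 19 fell and 1 rose, and 32 were lower at an adjusted p under 0.05 at any fold, with a median log2 fold change of −0.69. Without KCl replicate 2 or without KNO3 replicate 4, 12 fell. Summed over the list, the level was 1873 to 2186 FPKM under KNO3 and 2983 to 3509 FPKM under KCl, so that the groups of libraries did not overlap. The lipoxygenase gene_Zm00001d042540, of the enzyme class that oxidises fatty acids at the start of oxylipin synthesis, had 66.8, 32.3 and 44.4 FPKM under KNO3 and 216, 169 and 144 FPKM under KCl (log2 fold change −1.92 ± 0.27, adjusted p = 4.1e-04). Zm00001d028744, a jasmonate-induced oxygenase, an enzyme class that inactivates jasmonate in Arabidopsis, had 8.19, 9.99 and 12.9 FPKM, against 36.4, 23.9 and 32.1 FPKM. The ethylene-forming ACC oxidase gene_Zm00001d024853 had 10.8, 11.2 and 14.6 FPKM, against 44.0, 37.9 and 49.6 FPKM (−1.84 ± 0.25).

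The fall of this list was also seen in WT. There 15 members fell and 2 rose, with a median of −0.54. None of the 81 genes had a difference of the response from WT at an adjusted p under 0.05, where 1.51% of all genes did. In zmnlp3.1 2 fell and 2 rose, with a median of 0.00. Against that mutant 6 of the 81 genes had a more negative and none a more positive response in zmnrt1.1b by the interaction test, where 1.38% and 0.411% of all genes did.

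WRKY factors, many of which act in defence in plants, fell more often than they rose. Of 97 tested, 11 fell (11.3%) and 3 rose (3.09%), where 2.62% and 2.03% of all genes did. Without KCl replicate 2 or without KNO3 replicate 2, 7 fell. In WT 10 fell and 4 rose, and in zmnlp3.1 3 fell and 2 rose. By the interaction test 4 of the 97 had a lower response than in WT and none a higher one, where 0.969% and 0.542% of all genes did. The WRKY70 gene Zm00001d022437 had 2.57, 2.24 and 2.19 FPKM under KNO3 and 8.46, 8.96 and 7.32 FPKM under KCl (log2 fold change −1.78 ± 0.17). Against WT the interaction test gave a difference of −1.27 (adjusted p = 0.017). Of 34 tested aquaporins, the channels that carry water and small solutes across membranes, 6 fell and 1 rose, with 4 to 8 falling when 1 library was left out. It was 4 without KCl replicate 2 and without KNO3 replicate 5. The NIP2-1 gene gene_Zm00001d018037 had 44.7, 38.8 and 58.2 FPKM, against 141, 113 and 115 FPKM, and the TIP2-3 gene Zm00001d002738 had 2.32, 2.46 and 3.33 FPKM, against 10.8, 8.11 and 9.41 FPKM.

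The list named fermentation held 4 falling and 1 rising of 16 tested genes, but its pattern also matched cinnamyl alcohol dehydrogenases, enzymes of lignin synthesis. Both kinds fell: the cinnamyl alcohol dehydrogenase Zm00001d020401 had 308, 199 and 283 FPKM, against 654, 688 and 544 FPKM, and the pyruvate decarboxylase gene_Zm00001d008651 had 5.10, 4.43 and 3.77 FPKM, against 13.0, 11.6 and 8.56 FPKM.

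Among falling genes with a protein description, a mean of at least 5 FPKM and no overlap of libraries, both largest falls belonged to cysteine proteases. Oryzain alpha chain (Zm00001d036542; chromosome 6, 91512193 to 91513831) had 2.52, 7.45 and 8.50 FPKM under KNO3 and 368, 327 and 169 FPKM under KCl, a log2 fold change of −5.62 ± 0.83 (adjusted p = 5.1e-04). The thiol protease SEN102 (Zm00001d007049) had 2.43, 4.78 and 10.7 FPKM, against 152, 156 and 74.0 FPKM (−4.56 ± 1.01, adjusted p = 0.0073). In WT Zm00001d036542 averaged 0.687 FPKM under KNO3 and 13.0 FPKM under KCl, and Zm00001d007049 averaged 1.099 FPKM under KNO3 and 3.81 FPKM under KCl. Neither Zm00001d036542 nor Zm00001d007049 passed the interaction test against WT (adjusted p = 0.88 and 0.74). Of 64 tested genes of autophagy and cysteine proteases, 3 fell and none rose, and 1 of the 3 is a cysteine proteinase inhibitor, gene_Zm00001d029628.

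Further large falls were found in genes of several functions. The xylanase inhibitor gene Zm00001d037656, whose product blocks enzymes of microbes that break down cell walls, had 48.6, 32.5 and 86.5 FPKM under KNO3 and 391.5, 336 and 241 FPKM under KCl (−2.62 ± 0.35). Zm00001d015743, described as HY5, a bZIP factor of light signalling, had 2.58, 2.35 and 2.07 FPKM, against 11.6, 11.6 and 9.94 FPKM (−2.20 ± 0.43, adjusted p = 0.0037). Cortical cell-delineating protein (gene_Zm00001d051384) had 238, 44.4 and 150 FPKM, against 556, 748 and 481 FPKM, with wide scatter among the KNO3 libraries. In the leaf list of 19 genes, 2 fell and none rose, with a median of −0.55. The light-harvesting gene gene_Zm00001d021784 had 1.40, 1.82 and 1.71 FPKM, against 4.76, 5.33 and 5.00 FPKM, while in WT it averaged 2.57 FPKM under KNO3 and 2.24 FPKM under KCl (difference −1.74, adjusted p = 0.048, kept in 2 of the 12 fits without 1 zmnrt1.1b or WT library).

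Some of the histone and cyclin genes, which are transcribed in dividing cells, rose in zmnrt1.1b. Of 172 tested genes of the cell cycle and histones, 26 rose and 1 fell, and 55 were higher at an adjusted p under 0.05 at any fold. Sorted by description after the values were seen, 19 of 74 histone genes and 7 of 21 A-type and B-type cyclin genes rose, with medians of 0.73 and 0.96, while none of the other 77 members rose. Without KNO3 replicate 4, 11 of the histone and 2 of the cyclin genes rose, and with a pseudocount of 1 FPKM 2 of the cyclin genes rose. The histone H3.2 gene gene_Zm00001d036250 had 46.8, 57.2 and 41.4 FPKM under KNO3 and 15.8, 24.7 and 14.8 FPKM under KCl (log2 fold change 1.42 ± 0.20, adjusted p = 4.3e-04). The mitotic cyclin gene_Zm00001d012560 (Cyclin-B1-1) had 9.33, 14.4 and 10.5 FPKM, against 3.64, 4.42 and 4.55 FPKM (1.40 ± 0.20). Histone genes are near-identical copies, so that reads may be split among them, and in bulk roots a larger share of dividing cells and more RNA per cell cannot be told apart. The count of rising genes in the list was 13 without KNO3 replicate 4 and 37 without KCl replicate 3, and the calls of 10 genes held in all 6 fits.

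Summed over the list, the level was 9656 to 11876 FPKM in zmnrt1.1b under KNO3 and 6448 to 7978 FPKM under KCl. In WT it was 8336 to 10808 FPKM under KNO3 and 8579 to 10478 FPKM under KCl, so that every zmnrt1.1b KCl library lay below every WT library. Of the 172 genes, 2 rose in WT and 8 in zmnlp3.1, where 33 were higher and 3 lower at an adjusted p under 0.05. The list median was 0.33 in zmnrt1.1b, −0.03 in WT and 0.19 in zmnlp3.1. Against zmnlp3.1, the interaction test called none of the 172 higher in zmnrt1.1b and 1 lower, where 0.411% and 1.38% of all genes were. By the interaction test against WT, 12 of the 172 had a higher response in zmnrt1.1b and none a lower one. Among all genes 0.542% and 0.969% did. Those 12 included gene_Zm00001d036250 (difference 1.63, adjusted p = 0.014) and gene_Zm00001d012560 (1.32, adjusted p = 0.030), of which the second was kept in 6 of the 12 fits without 1 zmnrt1.1b or WT library. Across the fits without 1 zmnrt1.1b library the 12 became 0 to 13, with 0 without KCl replicate 2, 5 without KCl replicate 4 and 4 without KNO3 replicate 4.

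Cytosolic ribosomal protein genes, whose near-identical copies may share reads, shifted upwards by mostly less than 2-fold. Of 278 tested, 256 had a positive log2 fold change, 162 were higher and 1 lower at an adjusted p under 0.05, and 2 passed the limit on the fold. The median was 0.56 in zmnrt1.1b, −0.03 in WT and 0.28 in zmnlp3.1. Summed over the list, zmnrt1.1b had 34914, 39979.6 and 31571 FPKM under KNO3 and 22874, 24429 and 23604 FPKM under KCl, whereas the WT libraries ranged from 23084 to 33544 FPKM under KNO3 and from 25513 to 30826.5 FPKM under KCl. Without KNO3 replicate 4 the number higher was 42, without KCl replicate 2 it was 45, and without KCl replicate 3 or 4 it was 95 each, while the median stayed between 0.45 and 0.63. In WT 1 gene was higher at that adjusted p, and the interaction test gave a higher response in zmnrt1.1b in 4 genes and a lower one in 1, where 0.542% and 0.969% of all genes passed. With voom on recovered reads 10 genes had a higher response than in WT. In zmnlp3.1 24 genes were higher and 1 lower at that adjusted p. Against zmnlp3.1, the interaction test called 1 of the 278 higher in zmnrt1.1b and none lower, where 0.411% and 1.38% of all genes were. The L29 gene Zm00001d009117 had 17.8, 17.5 and 13.6 FPKM, against 4.80, 6.44 and 4.83 FPKM (1.59 ± 0.24).

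Root marker genes moved the other way in the same libraries. The median of the 54 genes relative to the KCl mean was −0.11, −0.40 and −0.32 on the log2 scale in KNO3 replicates 2, 4 and 5, and that of the ribosomal list was 0.46, 0.77 and 0.42. KNO3 replicate 4 had the highest ribosomal and cell cycle values and the lowest root marker value of the 3. In WT the root marker medians under KNO3 were 0.03, 0.05 and −0.09. Their part in the rise of ribosomal and cell cycle genes was not tested.

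**Figure D4:**
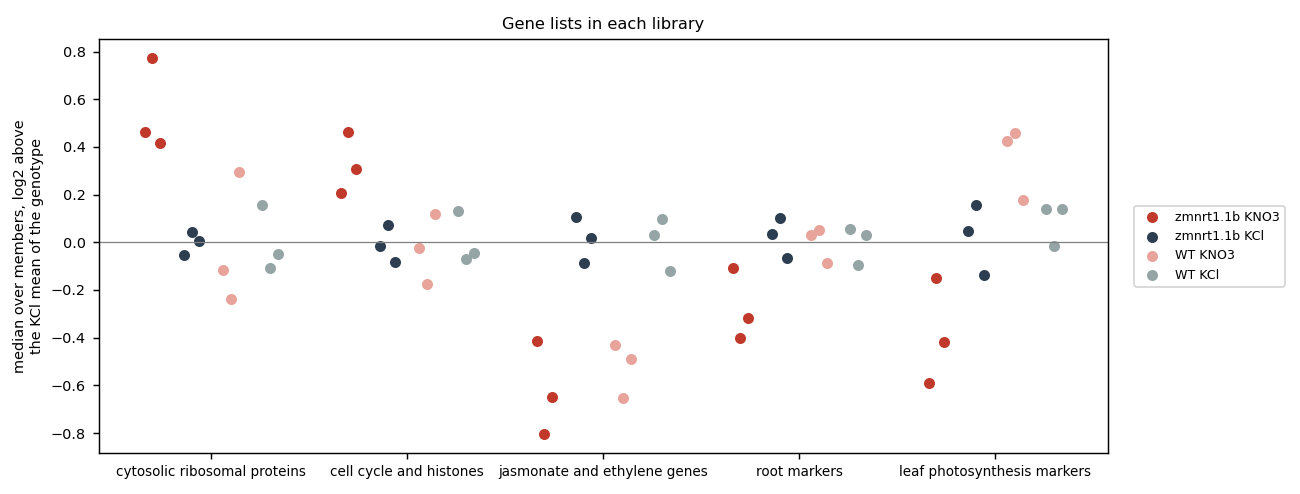
Median over the tested members of 5 lists in each library, as log2 above the KCl mean of the same genotype; red and dark points are zmnrt1.1b under KNO3 and KCl, pale and grey points WT under KNO3 and KCl. All 3 zmnrt1.1b KNO3 libraries lie above 0 for ribosomal and for cell cycle genes and below 0 for the other 3 lists.

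**Figure D5:**
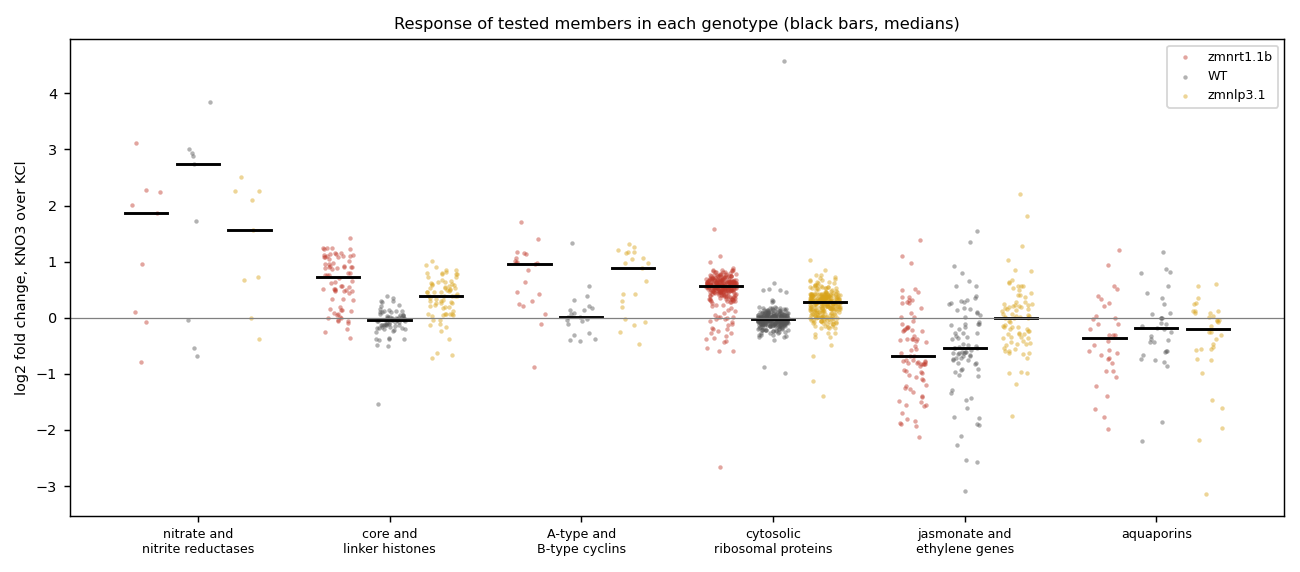
Log2 fold change (KNO3 over KCl) of each tested member of 6 gene groups in zmnrt1.1b (red), WT (grey) and zmnlp3.1 (ochre), with black bars at the medians. The medians of histones, cyclins and ribosomal proteins are 0.73, 0.96 and 0.56 in zmnrt1.1b and near 0 in WT. In zmnlp3.1 all of these medians also lie above 0, at 0.90 for cyclins and 0.28 for ribosomal proteins. The medians of reductases are 1.87 in zmnrt1.1b and 2.74 in WT.

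Among cytokinin genes, the called differences from WT were lower responses in zmnrt1.1b. Type-A response regulators, enzymes of cytokinin turnover and related genes numbered 47 tested, of which 10 rose in WT and 1 (2.13%) in zmnrt1.1b. Of all genes, 2.75% and 2.03% rose. The 1 was the cytokinin dehydrogenase gene_Zm00001d032664, at 14.9, 13.45 and 10.4 FPKM under KNO3 and 5.97, 5.52 and 5.998 FPKM under KCl. By the interaction test 6 of the 47 had a lower response than in WT on the signed log2 scale and none a higher one. Of all genes tested, 0.969% and 0.542% did. The response regulator Zm00001d023242 (ORR10), picked after its values were seen, had 84.4, 87.8 and 90.1 FPKM in zmnrt1.1b under KNO3 and 87.0, 59.4 and 72.9 FPKM under KCl. In WT it averaged 247 FPKM under KNO3 and 97.9 FPKM under KCl (difference of the log2 fold changes −1.07, adjusted p = 0.028). Of 86 NAC genes, none rose and 2 fell (2.33%) in zmnrt1.1b, and 1 fell without KCl replicate 2. These counts were near the 2.03% and 2.62% of all genes. In WT 6 rose and 4 fell. By the interaction test 4 of the 86 had a lower response in zmnrt1.1b on the signed log2 scale and none a higher one. The same shares of all genes, 0.969% and 0.542%, apply. Neither the 6 cytokinin nor the 4 NAC calls were recounted with a library left out.

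Over all genes, the response of zmnrt1.1b was higher than that of WT on the signed log2 scale in 141 genes and lower in 252. These counts moved with single libraries. The 141 became 18 without zmnrt1.1b KCl replicate 2, 84 and 57 without KCl replicates 3 and 4, and 70 without KNO3 replicate 4. Leaving out WT libraries gave 71, 43 and 43 for KCl replicates 1, 2 and 3, and 35, 30 and 247 for KNO3 replicates 1, 3 and 4. The 252 became 59 and 148 without zmnrt1.1b KCl replicates 2 and 4, 146 without zmnrt1.1b KNO3 replicate 4, 119 and 104 without WT KCl replicates 2 and 3, and 86 and 88 without WT KNO3 replicates 1 and 3. Of the genes that rose in zmnrt1.1b, 30 had a larger and 10 a smaller response than in WT, and of those that fell, 42 had a larger and 3 a smaller one.

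Single genes with a called difference from WT could be named on both sides. The B-box gene gene_Zm00001d021278 had 3.54, 3.92 and 4.15 FPKM in zmnrt1.1b under KNO3 and 15.8, 11.5 and 13.9 FPKM under KCl, whereas WT averaged 10.4 FPKM under KNO3 and 9.89 FPKM under KCl (difference −1.86 ± 0.23, adjusted p = 0.0026). The multicopper oxidase Zm00001d040034 (LPR1 homolog 2), whose Arabidopsis relative acts in the root response to low phosphate, had 4.79, 3.56 and 3.55 FPKM, against 10.1, 13.6 and 12.9 FPKM, beside WT means of 5.96 FPKM under KNO3 and 4.80 FPKM under KCl. On the other side, gene_Zm00001d043390 (DOG1-like 1) had 157, 155 and 153 FPKM, against 43.2, 32.7 and 38.5 FPKM, while WT averaged 283 FPKM under KNO3 and 31.6 FPKM under KCl (difference −1.13 ± 0.18, adjusted p = 0.0075). The aluminum-activated malate transporter Zm00001d017571 (ALMT10) had the reverse response, with 13.7, 19.1 and 16.8 FPKM under KNO3 and 5.92, 6.85 and 8.12 FPKM under KCl in zmnrt1.1b. In WT it averaged 6.09 FPKM under KNO3 and 17.1 FPKM under KCl (difference 2.71 ± 0.37, adjusted p = 0.0028). These 4 differences were called in each of the 12 fits without 1 zmnrt1.1b or WT library. The genes were picked for a small p of the same test or for opposite directions in zmnrt1.1b and WT. The fits are therefore no independent check of them.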

How the data were processed

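The authors extracted total RNA from roots, sequenced poly(A) libraries as 150 bp paired-end reads and aligned them to B73 RefGen_v4 with HISAT2 (v2.0.5). The submitters' processing notes also name fastp and StringTie (v1.3.3b), and the library protocol names no strand marking. The authors deposited FPKM values of 47334 genes in 18 libraries, and 0 columns of values were left unused. FPKM times gene length was a whole multiple of 1 step per library for 100% of values (tolerance 0.01), so reads were recovered. The deposited values proved to be scaled by median ratios. Replicate spread limits the well-covered genes and read number the poorly covered ones.

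Log2(FPKM + 0.1) was tested with limma (v3.58.1, R v4.3.3) with a variance trend in 1 model of 6 groups (12 residual degrees of freedom), over genes with at least 1 FPKM in at least 3 libraries. Because of the pseudocount, changes of weak genes come out too small. Two-sided p-values were adjusted (Benjamini-Hochberg) over all 26011 genes tested. The differences of responses were interaction contrasts of that model. SEs are those of limma. A simulation with 200 genes of the zmnrt1.1b comparison changed by a log2 value of 2 recovered 196 and called 5 others. The changed genes all had a mean log2 value above 2. Noise was normal, with the same SD of a gene in all groups. Recovery of weaker genes or smaller changes was therefore not tested. Nor were false calls under the wider spread of the zmnrt1.1b KNO3 libraries (median SD 0.27, against 0.16 under KCl). Summaries used pandas (v2.3.3) and figures matplotlib (v3.10.9).

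Members and lists were chosen with earlier results of these data known. The 32 lists are word patterns in the protein descriptions. Summed levels take in every member of a list, tested or not, and medians only the tested members. Genes named were those the paper names (none could be linked to an ID), the 12 largest rises and falls in zmnrt1.1b with a description (mean of at least 5 FPKM, no overlap of libraries) and 2 without, up to 4 called members per list by p, the reductase, NRT2 and NPF6.3 genes, and 5 genes each with a larger or smaller response than in WT. Genes changed in opposite directions in zmnrt1.1b and WT were added after their values were seen, as were Zm00001d023242, Zm00001d028744, Zm00001d045667, Zm00001d027700, gene_Zm00001d025015, gene_Zm00001d049187, Zm00001d021653 and the 3 falling CIPK genes. Alternatives were a pseudocount of 1 FPKM, minima of 0.1 FPKM and of none, median ratios, a replicate block, fewer groups in the model, voom on recovered reads and each library left out. Scaling to total recovered reads, and the lists recounted with each library left out, were added after seeing the data. Promoter and protein sequences were not used here.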

Additional observations from a re-analysis of the deposited data

Results flagged for a closer look

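The results below are named genes whose response to KNO3 differed between zmnrt1.1b and WT by the interaction contrast of limma, at an adjusted p under 0.05. Values are the log2 fold change in zmnrt1.1b minus that in WT. In a few the response of zmnrt1.1b was higher: Zm00001d017571 (2.71), Zm00001d051945 (1.86), the histone gene gene_Zm00001d036250 (1.63), the cyclin gene gene_Zm00001d012560 (1.32) and gene_Zm00001d004443 (1.21), of which the last fell in both genotypes.

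In the others it was lower. Genes that fell in zmnrt1.1b had differences of −3.47 (Zm00001d032447), −3.06 (Zm00001d008222), −2.59 (gene_Zm00001d023430), −2.45 (Zm00001d022430), −2.34 (Zm00001d043849), −2.26 (Zm00001d013146), −2.18 (gene_Zm00001d017782), −1.95 (gene_Zm00001d048313), −1.91 (Zm00001d040034), −1.86 (gene_Zm00001d021278), −1.74 (gene_Zm00001d021784), −1.63 (gene_Zm00001d036123), −1.49 (Zm00001d007827) and −1.27 (Zm00001d022437). Genes that rose in both genotypes, and less in zmnrt1.1b, had −1.45 (gene_Zm00001d007962), −1.34 (gene_Zm00001d015183), −1.31 (Zm00001d003463), −1.25 (gene_Zm00001d020272), −1.19 (gene_Zm00001d034160), −1.17 (Zm00001d029529) and −1.13 (gene_Zm00001d043390).

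Of these 26 differences, 10 kept an adjusted p under 0.05 in all 12 fits without 1 zmnrt1.1b or WT library. The fewest fits that kept one was 2, for the light-harvesting gene gene_Zm00001d021784.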

How the results depend on the processing

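Under a pseudocount of 1 FPKM, 323 genes rose (527 as reported) and 7 WRKY genes fell (11 as reported). In a model of the 6 zmnrt1.1b libraries alone, 461 genes rose and 576 fell (681 as reported). In that model 4 cyclin genes rose (7 as reported), and 117 ribosomal genes were higher at an adjusted p under 0.05 (162 as reported). A higher response than in WT was called for 79 genes with no minimum, 253 in a model of zmnrt1.1b and WT alone and 347 with a replicate block (141 as reported). A lower one was called for 457 genes with the replicate block and 164 after scaling to total recovered reads (252 as reported). Rescaling by median ratios left these counts nearly as they were, since the deposited values already had that scale. KNO3 and KCl libraries of zmnrt1.1b share only the numbers 2 and 4, whose deviations correlated at −0.0004 and 0.103, so the numbers were not taken as pairs. With the replicate block 582 genes rose and 763 fell. A higher response than in WT was then called for 30 cell cycle genes (12 as reported), 26 of them histones (10 as reported), and for 24 ribosomal genes (4 as reported).

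With 1 library left out, the falling genes numbered 404 to 771, genes with a higher response than in WT 18 to 247, those with a lower one 59 to 287, and genes falling in both zmnrt1.1b and WT 141 to 230. Rising cell cycle genes numbered 13 to 37, rising ammonium assimilation genes 3 to 5, falling jasmonate and ethylene genes 12 to 19, and falling WRKY genes 7 to 16. Of the 138 named genes, 27 lost a call in at least 1 such fit. None of the 3 that changed direction passed the test: Zm00001d011679 ran between −0.15 and 0.56, Zm00001d013211 between −0.20 and 0.10, and the newly assembled nitrate reductase gene between −0.22 and 0.35. The cause was not tested.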

Other observations

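Genes that responded in WT and missed the thresholds in zmnrt1.1b numbered 477 rising and 535 falling. Their difference was called by the interaction test for 94 of all 716 genes rising in WT and for 51 of all 750 falling in WT, each with the smaller response in zmnrt1.1b. The median log2 fold change of the 716 genes was 0.79 in zmnrt1.1b and 1.46 in WT, and that of the 750 genes was −0.81 in zmnrt1.1b and −1.46 in WT. Since these genes were chosen on the WT values, the medians are a description with no test.

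In the other direction, 245 genes rose and 402 fell past both thresholds in zmnrt1.1b and not in WT or zmnlp3.1. For these, missing the threshold in the other genotypes is no test of a difference.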
